A study of Mus musculus with 17 samples.

Results

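The genes described here encode the proteins of the mitochondrial ribosome, chosen as every gene of the deposited tables whose symbol begins with Mrpl (large subunit) or Mrps (small subunit) followed by a digit. The rule found 77 of the 12334 genes in the RNA table, 48 Mrpl and 29 Mrps genes. In the table of the histone mark it found 161 of 57499 regions, of which 62 had a listed distance to the start site of at most 1000 bases and are called promoter regions. These 62 regions carried the names of 59 members. All 78 protein-coding mouse genes that RefSeq lists under such a symbol had a row in the RNA table, 77 by that symbol and 1, Mrpl58, under its older name Ict1, which the rule does not match.

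Livers came from C57BL/6 mice, an inbred laboratory strain, after 10 weeks on 1 of 2 diets. Fat supplied 60% of the calories in the high-fat diet (HFD) and 18% in the control diet (CD). RNA with a poly(A) tail was read in 4 livers of each diet, lettered A to D. Histone H3 carrying acetyl groups on lysine 9 (H3K9ac), a mark of active promoters, was mapped by immunoprecipitation in 3 livers of each diet, CD A, C and D and HFD A, B and D. The animals' age and sex, and whether equal letters mark the same animal, are not stated. One input library and 2 libraries of open chromatin, all from CD, were not analysed here.

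Mitochondria translate a handful of respiratory chain proteins from their own genome on a ribosome of their own. Its RNAs come from mitochondrial DNA, but all of its proteins are encoded in the nucleus, made in the cytosol and imported, so that the ribosome needs nuclear and mitochondrial genes to be read together. The large subunit joins amino acids and holds the exit tunnel, and the small subunit binds and decodes the mRNA. Some of its proteins descend from bacterial ribosomal proteins and others are found only in mitochondria. Liver is rich in mitochondria, where fatty acids are oxidised. Not every symbol matches the protein's place: Mrps18a and Mrps30 sit in the large subunit in the known structures, and Mrps36 is now assigned to the 2-oxoglutarate dehydrogenase complex. The counts by subunit below follow the symbols.

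Several member promoters hold matches to the NRF1 or the ETS motif, those of factors long known at nuclear genes of mitochondria. The promoters of 5 such members are printed first as examples. Each is the 100 bases before the RefSeq start site, in build GRCm38.p6 and 5′ to 3′ on the gene's strand. Capitals mark matches to the NRF1 core GCATGCG or to the ETS motif CCGGAAG, which GABPA binds, on either strand. The intervals are chr13:14613038-14613137 (minus strand) for Mrpl32, chr11:58171564-58171663 (plus) for Mrpl22, chr7:105811088-105811187 (minus) for Mrpl17, chr19:45006443-45006542 (minus) for Mrpl43 and chr17:46110904-46111003 (plus) for Mrps18a.
Mrpl32: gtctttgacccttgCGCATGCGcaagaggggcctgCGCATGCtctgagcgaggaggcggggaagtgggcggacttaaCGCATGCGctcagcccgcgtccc
Mrpl22: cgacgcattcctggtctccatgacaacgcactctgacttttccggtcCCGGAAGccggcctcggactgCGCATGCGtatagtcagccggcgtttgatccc
Mrpl17: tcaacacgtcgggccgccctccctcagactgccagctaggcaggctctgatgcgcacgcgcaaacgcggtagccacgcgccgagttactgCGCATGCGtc
Mrpl43: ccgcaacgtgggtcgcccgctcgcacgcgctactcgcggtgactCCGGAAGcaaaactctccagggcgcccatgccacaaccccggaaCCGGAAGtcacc
Mrps18a: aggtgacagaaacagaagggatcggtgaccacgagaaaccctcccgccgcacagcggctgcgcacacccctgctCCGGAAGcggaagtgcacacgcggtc
The run CGCATGCG reads the same on both strands and so holds 2 overlapping matches to the NRF1 core. The Mrpl32 promoter holds 2 such runs and a single match between them, and the Mrpl43 promoter holds the ETS motif at 2 places.

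RefSeq gave a promoter of 300 bases (250 before the start site to 50 after it) for 68 of the 77 members and for 27025 mouse genes, of which 9462 are in the RNA table. The ETS motif CCGGAAG, searched on both strands like the others, was in 25 of the 68 member promoters (36.8%), in 19.8% of the listed genes' promoters and in 9.93% of all promoters. It was in 14 of 42 large-subunit and 11 of 26 small-subunit promoters. The NRF1 core was in 8 (11.8%, against 7.28% of listed genes and 4.01% of all), 7 of them large-subunit genes. A YY1 motif, AAGATGG, was in 13 (19.1%, against 8.51% and 7.28%). The Sp1 box GGGGCGG was in 24 (35.3%, against 47.2% and 25.5%). The cyclic AMP response element TGACGTC was in 4 (5.88%, against 6.18% and 3.6%). The TATA sequence TATAAA was in 5 (7.35%, against 9.32% and 15.7%). These are matches of letters, not binding sites, and no test was made of the shares.

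Most members were expressed above the level of the median gene. In FPKM, which divides by gene length so that genes can be compared, the median over members of the mean level was 22.2, against 5.34 over all 12334 genes. The means of Mrpl17 (5.08), Mrpl19 (3.19) and Mrps25 (1.62) lay below that median of all genes. The highest member was Mrpl12 (chr11:120484669-120488754), the protein of the flexible stalk that recruits translation factors. Its FPKM was 77.4, 62.8, 66.5 and 76.6 in CD A to D and 111, 81.1, 76.2 and 64.7 in HFD A to D. The lowest was Mrps25 (chr6:92169523-92184023), a small-subunit protein found only in mitochondria, with 1.75, 1.66, 1.57 and 1.34 in CD and 2.21, 1.48, 1.54 and 1.39 in HFD. In both genes HFD A was the highest library and the diets overlapped.

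The next highest means were those of Mrps21 (59.5 FPKM), Mrpl30 (55.3) and Mrpl42 (55.1). Mrps21 was at 67, 54.2, 52.3 and 60.3 FPKM in CD A to D and at 81.6, 56.8, 57 and 47.2 in HFD A to D. Mrpl30 was at 61.7, 43.9, 50 and 60.8 in CD and at 72.5, 55.7, 53.3 and 44.7 in HFD, and Mrpl42 at 60.9, 49.1, 47.6 and 58.1 in CD and at 72.8, 53, 52.9 and 46.8 in HFD. The ranges of these 3 genes overlapped, and each was highest in HFD A. Within a library Mrpl12 lay above Mrps21 in 8 of 8 and Mrps21 above Mrpl42 in 8 of 8, while Mrpl30 lay above Mrpl42 in 5 of 8.

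The next lowest means were those of Mrpl19 (3.19 FPKM), Mrpl17 (5.08) and Mrpl41 (5.56). Mrpl19 was at 3.5, 2.84, 3.04 and 3.37 FPKM in CD A to D and at 3.56, 2.88, 3.33 and 3 in HFD A to D. It stayed within a narrow range in both diets. Mrpl17, whose protein lies near the exit tunnel, was at 5.35, 4.57, 4.71 and 5.63 in CD and at 6.55, 4.84, 4.86 and 4.17 in HFD. Mrpl41 was at 5.39, 4.46, 4.84 and 5.6 in CD and at 7.71, 6.05, 5.13 and 5.33 in HFD. Mrpl19 and Mrps25 lay below all other members in every library, while Mrpl41 lay above Mrpl17 in 6 of 8. Mrps25 and Mrpl17 are the longest transcripts of the family in the table, at 6065 and 6712 bases, and FPKM depends on the length entered for a gene. Large-subunit genes had a median of 23.2 FPKM and small-subunit genes of 21.2.

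**Figure D1:**
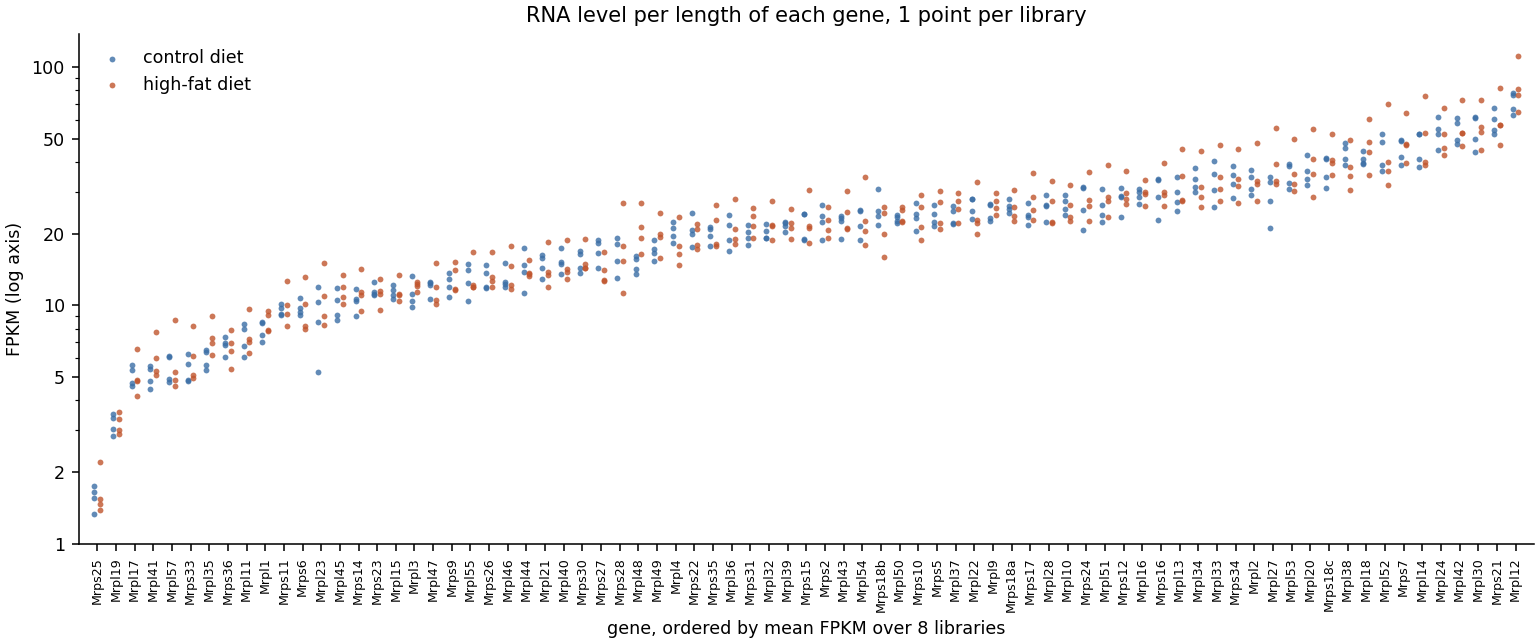
RNA level of each of the 77 genes in FPKM on a log axis, ordered by the mean over 8 libraries, with 1 point per library, blue for CD and orange for HFD. Mrps25 and Mrpl19 lie apart at the low end, Mrpl12 is at the high end, and the diets overlap in all genes but Mrpl48.

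No mitochondrial ribosomal protein RNA differed between the diets past the threshold. In edgeR's quasi-likelihood test, with p-values adjusted by Benjamini-Hochberg over all 12334 genes (threshold 0.05), 0 of 77 members were called, where 7.27% of all genes were. An unadjusted p under 0.05 was found for 3 members, all higher in HFD (3.9% of members, against 20.4% of all genes), and 1 member had HFD values that did not overlap the CD values (1.3%, against 14.3% of all genes). DESeq2 called 1 member, Mrpl48 (11.4% of all genes), and 3 had an unadjusted p under 0.05 there as well. The labels do not say whether libraries of a diet came from separate cages or days, and p-values measure the spread between these livers.

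The fitted changes of the family were small. They ran from -0.28 (Mrps27) to 0.49 (Mrpl48) on the log2 scale of HFD over CD, with a median of 0.07 (all genes 0.01) and a median standard error (SE) of 0.15. The 95% interval of all 77 members lay within a 2-fold change in either direction, as did that of 85.8% of all genes. For 69 members (89.6%) it lay within a 1.5-fold change, against 57.8% of all genes. The large-subunit genes had a median of 0.08 and the small-subunit genes of 0.07, and 38 of 48 and 21 of 29 were above 0.

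**Figure D2:**
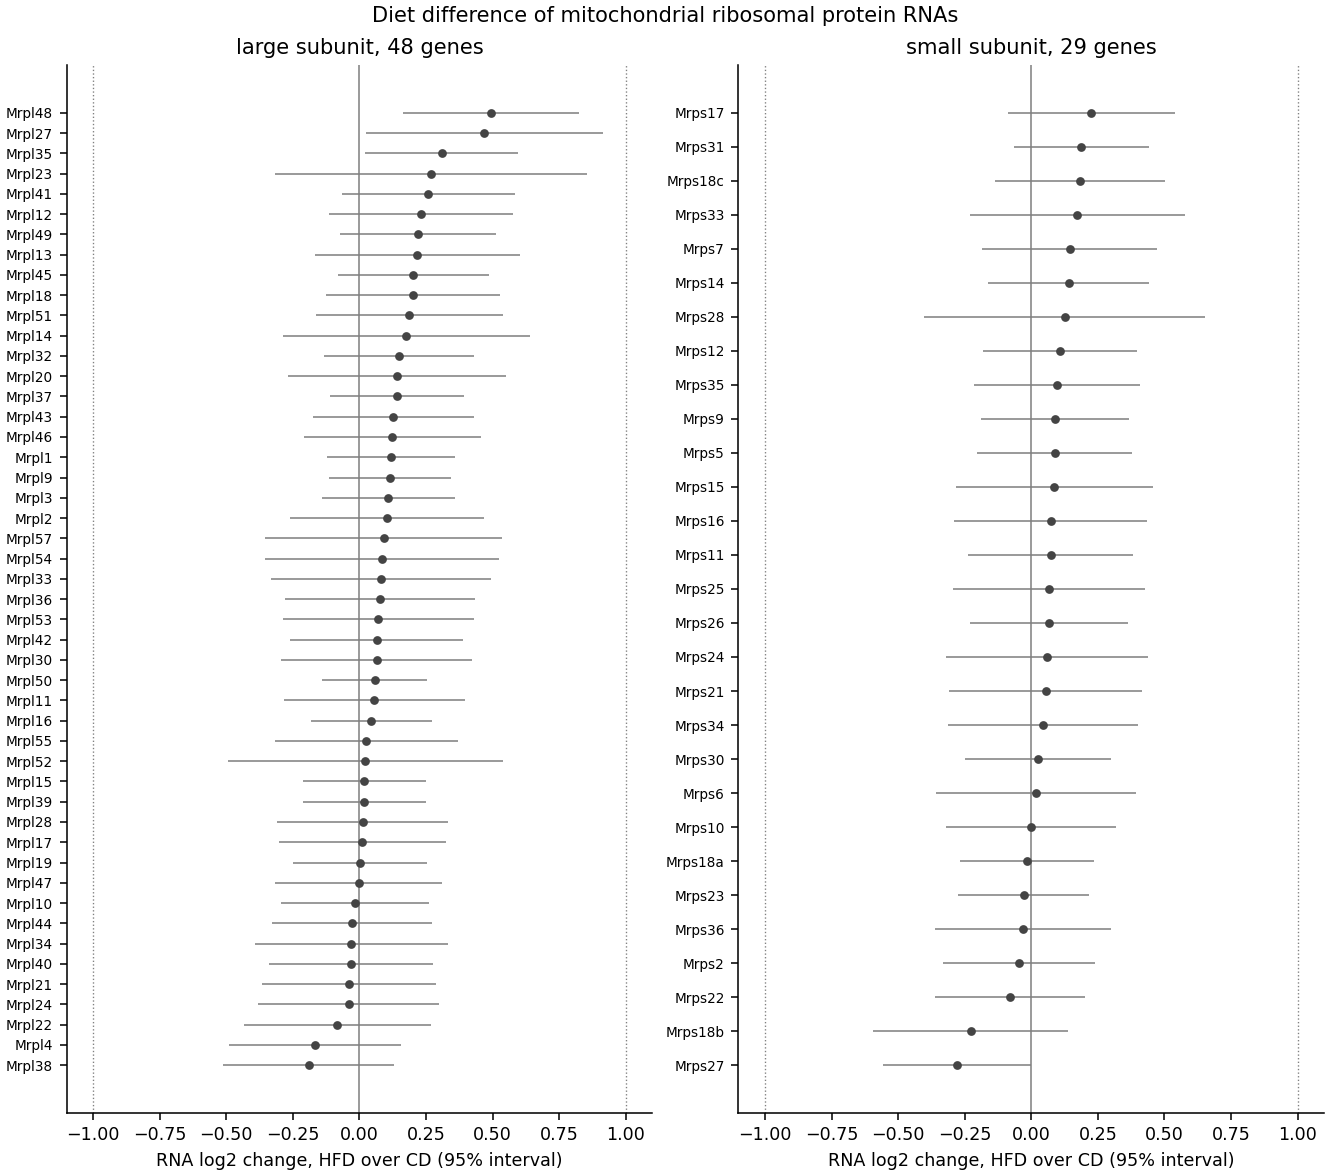
Log2 change of RNA, HFD over CD, for each large-subunit (left) and small-subunit (right) gene, with the 95% interval as a bar and dotted lines at a 2-fold change. All 77 intervals lie inside the dotted lines, and those of Mrpl48, Mrpl27 and Mrpl35 lie above 0.

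Mrpl48 (chr7:100549117-100607996, minus strand), which encodes a protein of the central protuberance of the large subunit, came nearest to a call. Its level was 16.9, 14.2, 15 and 16.5 CPM (counts scaled to library size with TMM factors) in CD A to D and 28.3, 22.3, 20.2 and 17.2 CPM in HFD A to D. All 4 HFD livers lay above all 4 CD livers, though HFD D was only just above CD A. The log2 change was 0.49 (SE 0.15, 95% interval 0.16 to 0.82, adjusted p = 0.0796). In the authors' deposited table it was the only member with a false discovery rate under 0.05, at 0.0367. DESeq2 gave an adjusted p of 0.0352, and the edgeR fit without HFD D one of 0.0326, so the call rests on the choice of test and on 1 library. The gene shares exon bases with Rab6a on the opposite strand, and whether the counting used strand is not stated.

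The other members with an unadjusted p under 0.05, and Mrps27 at the other end, were picked with their values in view. Mrpl27 (chr11:94653791-94660087), whose protein reaches toward the peptidyl transferase centre, was at 25.1, 15.3, 19.9 and 24 CPM in CD A to D and at 40.4, 28.4, 24.2 and 23.5 in HFD A to D. Its diets overlapped, and its log2 change was 0.47 (SE 0.20, edgeR adjusted p = 0.219) and 0.26 without HFD A. Mrpl35 (chr6:71812997-71823784), a large-subunit protein with a bacterial counterpart, was at 23.5, 19.9, 20.7 and 23.9 CPM in CD and at 33.4, 25.7, 26.9 and 22.9 in HFD. HFD D lay below CD A and CD D, and the log2 change was 0.31 (SE 0.13, edgeR adjusted p = 0.208) and 0.18 without HFD A.

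Mrps27 (chr13:99344786-99415561) encodes a small-subunit protein with RNA-binding repeats and had the lowest fitted change. It was at 30.7, 26.5, 33.7 and 34.8 CPM in CD and at 30.9, 25.9, 23.2 and 23.7 in HFD. HFD B, C and D lay below every CD liver, but HFD A lay in the middle of them. The log2 change was -0.28 (SE 0.13, edgeR adjusted p = 0.245), and -0.39 without HFD A (adjusted p = 0.057).

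The difference between livers of 1 diet was larger than that between the diets. The mean log2 level of the 77 members, relative to the CD mean, was 0.12, -0.16, -0.07 and 0.12 in CD A to D and 0.42, 0.04, -0.03 and -0.17 in HFD A to D. The highest and the lowest liver were thus both on the high-fat diet. The mean was 0 ± 0.143 in CD and 0.064 ± 0.251 in HFD (SD, n = 4 each). HFD A held the highest value of 70 of the 77 members (90.9%), where it held the highest value of 25.2% of all genes. The lowest value was in CD B for 33 members (42.9%, against 16.4% of all genes) and in HFD D for another 33 (42.9%, against 13%). HFD A held the lowest value of 0 members and of 26.2% of all genes. Members took 0.238% of all counts in HFD A and 0.178% in HFD D.

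The direction of the small shift rested on HFD A. With all 8 livers 59 of 77 members (76.6%) had a positive change, against 51.9% of all genes. Without HFD A 21 of 77 did and the median change was -0.09, so it turned negative, while 0 members were called. Leaving out any other library kept the median above 0.

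**Figure D3:**
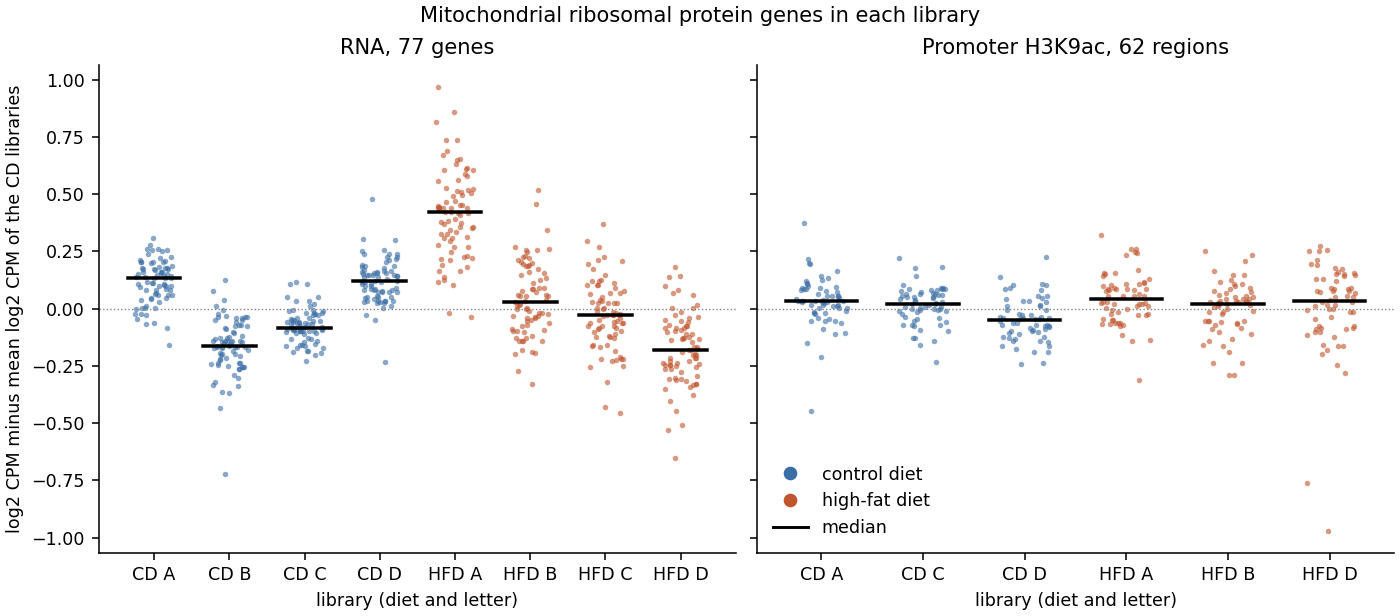
Level of each member in each library as log2 CPM minus the gene's mean log2 CPM over CD, for RNA (left, 77 genes) and promoter H3K9ac (right, 62 regions), with black lines at the medians. RNA points of HFD A lie almost all above 0 and those of CD B and HFD D mostly below, while the medians of the mark stay close to 0 in all 6 libraries.

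The members moved together from liver to liver. The Pearson correlation of a member's log2 level with the mean of the other 76, over the 8 RNA libraries, had a median of 0.90, and it was over 0.8 for 61 members. The points share the libraries with all their depth and RNA quality, so this is a description. Without HFD A the median was 0.78, the lowest value was -0.60 (Mrpl32) and 35 members were over 0.8. The 7 members not highest in HFD A were Mrpl3, Mrpl44, Mrpl50, Mrps18b, Mrps2, Mrps22 and Mrps27. Mrpl50 was highest in HFD C, and the other 6 were highest in CD D. The lowest correlations over all 8 libraries were those of Mrpl50 (0.36), Mrpl3 (0.42), Mrps18b (0.45) and Mrps27 (0.47), picked in the same way. Large- and small-subunit genes kept step: their means were 0.44 and 0.37 in HFD A and -0.15 and -0.21 in HFD D.

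Gene length moved with the level in HFD A over the whole table. Members are short, with a median length of 1053 bases against 2931 for all genes. In HFD A the median level of all genes relative to CD was 0.45 on the log2 scale for the 807 genes up to 1000 bases, 0.24 for those over 1000 and up to 2000, -0.02 for those over 2000 and up to 4000, and -0.29 for the 3849 genes over 4000 bases. In HFD D the same medians ran the other way, from -0.21 to 0.12. So did those of HFD C, from -0.15 to 0.11, and those of CD B, from -0.18 to 0.08. The 31 members up to 1000 bases were at 0.46 in HFD A and the 34 over 1000 and up to 2000 bases at 0.34. The 7 members over 2000 and up to 4000 bases were at 0.42 and the 5 over 4000 bases at 0.27, where all genes of those lengths had medians below 0. With each library's trend on gene length removed, a setting added after seeing the data, the member mean fell to 0.12 in HFD A and rose to -0.05 in HFD D, and the median change was 0.04. In that setting 2 of 77 members passed the edgeR threshold, where 11.6% of all genes did: Mrpl48 (log2 change 0.44, adjusted p = 0.0065) and Mrpl27 (0.43, adjusted p = 0.018). The part of length in the members' levels was not tested further.

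**Figure D4:**
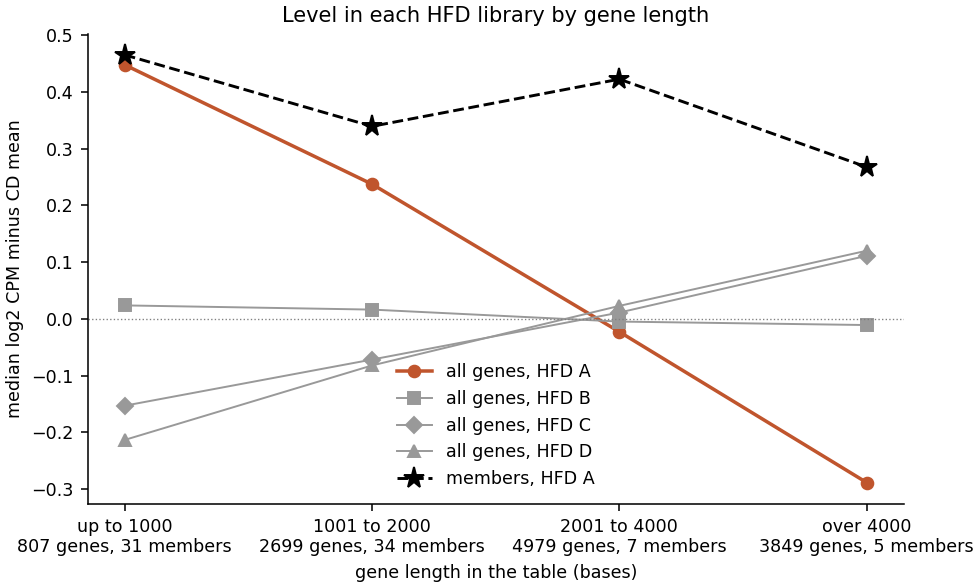
Median log2 CPM relative to the CD mean in each HFD library by gene length (bases, 4 bins with the number of genes and members), for all genes (lines) and for members in HFD A (stars). All genes in HFD A fall from 0.45 to -0.29 with length while members stay between 0.27 and 0.46, over only 7 and 5 members in the 2 longest bins.

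Markers of liver cell types also moved in HFD A. Relative to CD, the mean log2 level of 12 endothelial markers was -0.55 in HFD A and 0.59 in HFD D (range -0.15 to 0.30 in CD), and that of 13 macrophage markers was -0.69 and 0.81 (range -0.30 to 0.33 in CD). The 13 stellate cell markers were at -0.63 and 0.27 (-0.18 to 0.16 in CD). HFD B had endothelial, macrophage and stellate means of -0.28, -0.02 and -0.53, and HFD C had 0.59, 0.17 and 0.01. The member means were 0.42, 0.04, -0.03 and -0.17 in HFD A to D. The 12 hepatocyte markers were at 0.42 in HFD A, 0.36 in HFD B, 0.15 in HFD C and 0.16 in HFD D (-0.06 to 0.11 in CD). Among them 2, Cyp2e1 and Pck1, passed the edgeR threshold as higher in HFD. Of the other 10 hepatocyte markers Ass1 (log2 change 0.93) and Cps1 (0.42) had positive changes with an unadjusted p under 0.05, and Fgb and Hnf4a had negative changes, Fgb with an unadjusted p under 0.05 (log2 change -0.41, edgeR adjusted p = 0.0656). The 6 bile duct markers were lower in all 4 HFD livers, the highest at -0.50 (-0.14 to 0.18 in CD), with Sox9 called lower. The 3 lymphocyte markers lay between -0.03 and 0.57 in HFD (-0.44 to 0.21 in CD). The markers Cftr, Cd3e, Cd3d and Nkg7 were not analysed here. The part of cell composition in the members' levels was not tested, and in whole liver fewer cells of a type and less RNA per cell cannot be told apart.

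Other genes of mitochondrial translation were mostly not called either, on lists chosen from textbook roles with earlier results of these data known. Over all genes the shares in the edgeR fit were 7.27% called and 20.4% with an unadjusted p under 0.05. Of 6 mitoribosome proteins with other names, 0 were called and 1, Dap3, had an unadjusted p under 0.05 (log2 change 0.32, edgeR adjusted p = 0.22). Their mean level was 0.42 in HFD A and -0.23 in HFD D, close to that of the members. Of 14 translation factors 0 were called, and of 22 aminoacyl-tRNA synthetases 0, with mean levels in HFD A of 0.13 and 0.05. By an unadjusted p under 0.05, 1 translation factor was higher, and 1 synthetase was higher and 1 lower. Of 28 assembly factors 1 was called: Mettl15, which methylates the RNA of the small subunit, rose from 1.55 ± 0.39 to 2.82 ± 0.292 CPM (mean ± SD over 4 livers of each diet), a log2 change of 0.86 (SE 0.21, edgeR adjusted p = 0.0329). Of 19 genes of mitochondrial RNA synthesis and processing 1 was called: Polrmt, the mitochondrial RNA polymerase, fell from 22.5 ± 1.1 to 17.5 ± 0.687 CPM (log2 change -0.36, SE 0.09, edgeR adjusted p = 0.0369).

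Among 11 regulators of mitochondrial gene expression 4 were called in the same fit, where 7.27% of all genes were. Ppara, the nuclear receptor for fatty acid oxidation, rose from 264 ± 37.4 to 523 ± 61.1 CPM (log2 change 0.99, SE 0.13, edgeR adjusted p = 0.00116). The coactivators Ppargc1a (log2 change 0.98, SE 0.19, adjusted p = 0.0119) and Ppargc1b (1.08, SE 0.21, adjusted p = 0.0117) rose as well. Myc fell from 15.4 ± 9.55 to 2.51 ± 1.2 CPM (log2 change -2.62, SE 0.53, edgeR adjusted p = 0.0143). Of the factors behind the motifs above, Nrf1, Gabpa and Yy1 were on the list. Their log2 changes were near 0 and did not pass the test: Nrf1 -0.05 (95% interval -0.31 to 0.20), Gabpa -0.02 (-0.40 to 0.36) and Yy1 0.04 (-0.24 to 0.31). Factors that bind the Sp1, cyclic AMP and TATA motifs were not on it. The mRNAs encoded in mitochondrial DNA were not analysed here.

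No promoter of the family differed in the histone mark past the threshold either. In edgeR's quasi-likelihood test over all 57499 regions, 0 of the 62 member promoter regions were called, where 2.73% of the 13830 promoter regions of all genes were. An unadjusted p under 0.05 was found for 3, of which 2 were higher and 1 lower (4.84%, against 10.4% of promoter regions), and DESeq2 called 0 (1.94% of promoter regions) with 2 such regions. Diets did not overlap in 8 regions, 7 higher and 1 lower in HFD (12.9%, against 14.8%). The fitted changes were smaller than those of the RNA, from -0.24 to 0.21 on the log2 scale with a median of 0.03 (all promoter regions 0.01), and 40 of 62 were above 0 (64.5%, against 54.6%). The 95% interval lay within a 1.5-fold change for 60 of the 62 (96.8%, against 77.3%). No member promoter region of the authors' deposited table had a false discovery rate under 0.05, the lowest being 0.364 at Mrpl41.

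The mark was strong at these promoters. The median was 45.1 CPM per region (all promoter regions 34.7), or 37.1 CPM per 1000 bases (24.5). Per length the highest regions were those of Mrpl48 (chr7:100607117-100608948, 99.2 CPM per 1000 bases) and Mrps7 (chr11:115603206-115605123, 93.3), and the lowest were second, weak regions near Mrps23 (3.31) and Mrpl28 (3.97). The Mrps7 region also spans the start of the divergent gene Gga3, and the Mrpl48 region that of Rab6a. The level at Mrpl48 was 175, 187 and 182 CPM in CD A, C and D and 178, 171 and 198 CPM in HFD A, B and D. The 2 diets overlapped fully, with a log2 change of 0.01 (SE 0.07), at the member whose RNA was nearest to a call.

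The promoters with the smallest p for a higher mark were those of Mrpl41, Mrpl39, Mrpl51 and Mrps36. The Mrpl41 region also spans the divergent start of Pnpla7, 935 bases away, and the Mrpl51 region that of Ncapd2, 614 bases away. At Mrpl41 (chr2:24974287-24976786), a large-subunit protein found only in mitochondria, the level was 83, 74.7 and 75.4 CPM in CD A, C and D and 92.2, 89.7 and 86.3 CPM in HFD A, B and D. All HFD livers lay above all CD livers (log2 change 0.20, SE 0.08, edgeR adjusted p = 0.259). At Mrpl39 (chr16:84734381-84735975) it was 46, 41.7 and 42.7 CPM in CD and 52, 51.1 and 47.6 CPM in HFD, again without overlap (0.21, SE 0.09, edgeR adjusted p = 0.363). Mrpl51 (chr6:125191188-125192992, 0.15, SE 0.08) and Mrps36 (chr13:100743925-100744818, 0.18, SE 0.10) did not overlap either, at edgeR adjusted p = 0.513 and 0.517. Mrpl51 went from 74.4, 74.6 and 69.7 to 86.4, 79.5 and 77.5 CPM, and Mrps36 from 38.8, 48.2 and 48.3 to 49.5, 49.6 and 54.3 CPM. CD A was the low library at Mrps36, and without it the change was 0.08. In RNA the 4 genes had log2 changes of 0.26, 0.02, 0.19 and -0.03, none of them called.

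The smallest p for a lower mark were at Mrps18a, Mrps5, Mrpl33 and Mrps10. At Mrps18a (chr17:46110659-46111531), whose promoter with its ETS match is printed above, the level was 44.5, 42.8 and 35.8 CPM in CD A, C and D and 33, 33.4 and 38.4 CPM in HFD A, B and D. HFD D lay above CD D, so the diets overlapped (log2 change -0.24, SE 0.10, edgeR adjusted p = 0.344). At Mrps5 (chr2:127586978-127588107), which helps form the mRNA entry of the small subunit, the level was 61.7, 65.4 and 60.8 CPM in CD and 60.5, 51.3 and 59 CPM in HFD. The diets just missed each other (-0.14, SE 0.09, edgeR adjusted p = 0.626), and the change was -0.06 without HFD B and -0.04 with the library letter as a block. The Mrps5 region also spans the divergent start of Zfp661, 332 bases away. Mrpl33 (chr5:31613725-31614434) went from 27, 28.7 and 30.3 to 27.4, 24.3 and 25.3 CPM and Mrps10 (chr17:47368689-47370151) from 49.7, 39.7 and 41.3 to 41.4, 38.9 and 38.8 CPM. Both overlapped, with log2 changes of -0.16 (SE 0.11) and -0.13 (SE 0.10) and edgeR adjusted p = 0.69 and 0.704. Without CD A, its highest library, the change at Mrps10 was -0.03.

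The libraries of the mark did not show the spread seen in the RNA. The mean log2 level over the 62 regions, relative to CD, was 0.03, 0.01 and -0.05 in CD A, C and D and 0.05, 0 and 0 in HFD A, B and D. The group means were 0 ± 0.0405 in CD and 0.0159 ± 0.0259 in HFD (SD, n = 3 each). HFD A was the highest library in 15 regions and HFD D in 20. These need not be the livers that carry the same letters in the RNA.

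Each region is named for 1 gene, and for 18 members, 14 Mrpl and 4 Mrps genes, no promoter region carried their own name. RefSeq start sites closed most of this gap. All 68 members with a RefSeq promoter entry had a region over a start site, as did 92.6% of the 9462 listed genes with an entry. Of the 18 members, 15 had it under a neighbour's name, such as Mrpl49 with Fau, Mrpl40 with Hira, Mrpl32 with Psma2, Mrpl47 with Ndufb5, Mrpl43 with Peo1 and Mrps27 with Ptcd2. Mrpl46 shared the region of Mrps11, another member, whose start site lies 42 bases away on the other strand. Mrpl12 had its own region of 6115 bases, listed at 1141 bases from the start site and so not counted as a promoter region, at 154, 138 and 152 CPM in CD A, C and D and 161, 158 and 153 CPM in HFD A, B and D (log2 change 0.09, SE 0.07). Mrps34 had no promoter entry. Over the 69 regions on a member's start site 0 were called, 47 were above 0 and the median log2 change was 0.03. Among the promoter regions of all genes 2.73% were called and 54.6% were above 0.

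A divergent start site of a neighbour within 1000 bases was found for 27 of the 68 members (39.7%), against 21.6% of the 9462 listed genes. The mark at such a region belongs to both genes at once. Of the 15 start-site regions that carried a neighbour's name, 12 had a change above 0 and 3 below it, from -0.09 to 0.14 on the log2 scale, and the lowest edgeR adjusted p was 0.564. Diets did not overlap in 4 of them, 2 higher and 2 lower in HFD, where they did not overlap in 14.8% of all promoter regions. The higher ones were shared by Mrpl49 and Fau, at 95.4, 98 and 98.2 CPM in CD A, C and D and 105, 103 and 104 CPM in HFD A, B and D (0.10, SE 0.08), and by Mrpl47 and Ndufb5, at 79.2, 81.2 and 83.1 CPM in CD and 88.7, 90 and 84.2 CPM in HFD (0.11, SE 0.08). The lower ones belonged to Mrpl43 and Mrpl32. At Mrpl43 and Peo1, the mitochondrial DNA helicase, it was 111, 111 and 114 CPM in CD and 108, 102 and 107 CPM in HFD, with no overlap and a log2 change of -0.09 (SE 0.08, edgeR adjusted p = 0.772). At Mrpl32 and Psma2, whose promoter with its NRF1 matches is printed above, it was 73.3, 74.9 and 76.1 CPM in CD and 72.8, 67.5 and 72.8 CPM in HFD, also without overlap (-0.07, SE 0.08, edgeR adjusted p = 0.8294). All 4 pairs were picked because their diets did not overlap.

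Away from the start sites 99 regions carried a member's name as the nearest gene. Of these, 3 passed the edgeR threshold (3.03%, against 2.39% of all regions). A region 14425 bases from the Mrps18a start (chr17:46123407-46127449), in its introns, was at 35.2, 32.7 and 18.3 CPM in CD A, C and D and at 18.8, 16.2 and 15.9 CPM in HFD A, B and D, so CD D lay among the HFD livers (log2 change -0.76, SE 0.14, edgeR adjusted p = 0.000341). A region in an intron of Ssbp3, 47430 bases from Mrpl37 (chr4:107018607-107020264), was at 11.3, 7.17 and 12.2 CPM in CD and at 6.22, 6.43 and 7.03 CPM in HFD (-0.64, SE 0.19, edgeR adjusted p = 0.04998). A region in the introns of Mrps21 (chr3:95864723-95865965) was higher in HFD, at 4.64, 4.83 and 3.37 CPM in CD and 8.86, 8.51 and 4.72 CPM in HFD (0.79, SE 0.21, edgeR adjusted p = 0.0244). There HFD D lay below CD C, so the diets overlapped. The RNA of these 3 genes was not called.

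RNA and mark did not run in parallel across the members. Over the 59 genes with both, the log2 mark at the promoter and the log2 FPKM had a Pearson correlation of 0.16 and a Spearman correlation of 0.08, and the 2 diet changes had 0.07 and 0.07. Genes are not independent replicates, so these are descriptions. Both changes were above 0 in 30 genes and below 0 in 4, RNA alone was above 0 in 15 and the mark alone in 10.

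**Figure D5:**
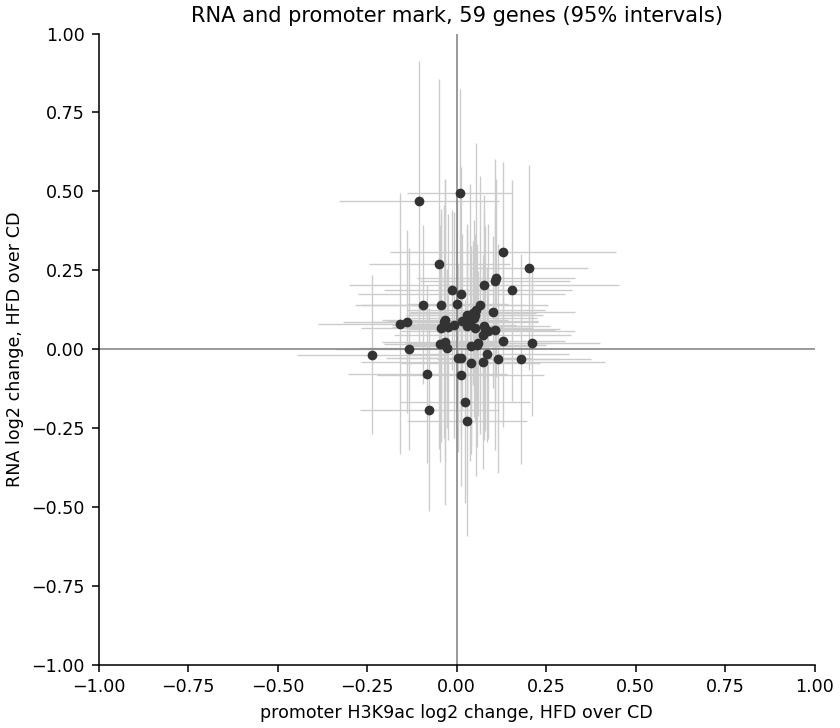
Log2 change of promoter H3K9ac (horizontal) against log2 change of RNA (vertical), HFD over CD, for the 59 members with a named promoter region, with 95% intervals. The points form a cloud around 0 with Pearson correlation 0.07, wider in RNA than in the mark.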

How the data were processed

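RNA was measured in 4 CD and 4 HFD livers and H3K9ac in 3 and 3. Per the file headers, the authors deposited raw counts and log2 FPKM per gene for RNA, raw counts and log2 CPM per region of 1 common region set for H3K9ac, and, for each, their own p-value, fold change and false discovery rate. Per the submitters' processing notes the build is mm10; the aligner, peak caller and counter, and whether it used strand, were not given in the sources used here. Of 17333 RNA lines 4999 were blank and were left out; 57571 H3K9ac lines gave 57499 distinct regions. The 119 H3K9ac lines whose gene name had become a date number carried no name. All value columns matched a labelled library (0 unmatched).

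Total counts were 31802893 to 37596560 per RNA library and 9255635 to 12149497 per H3K9ac library. Member genes had 113 to 3654 counts per library, and member promoter regions 6 to 2240, which limits the weakest regions most. No 2 libraries agreed within sampling noise (lowest chi-square per degree of freedom 32 for RNA and 1.49 for H3K9ac).

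Deposited counts were fitted with edgeR 4.0.16 in R 4.3.3 (TMM, filterByExpr, which removed no gene or region, glmQLFit and glmQLFTest, diet as the only term, two-sided, Benjamini-Hochberg over all genes or regions, threshold 0.05). Standard errors come from the quasi-likelihood F statistic and 95% intervals from its degrees of freedom. DESeq2 1.42.0 and the other settings are in the closing section, and the script was tested on simulated data. FPKM levels are the deposited log2 FPKM values raised from the log2 scale. Promoter sequences and start sites are from RefSeq in GRCm38.p6, the same assembly as mm10, matched by symbol for 68 of 77 members. Overlapping genes and members with processed pseudogenes may share reads. Full values are given for members called or not overlapping in RNA, the 4 highest and 4 lowest in FPKM, and the 4 promoter regions with the smallest p in each direction; other names are marked as chosen from their values. The members and lists were chosen with earlier results of these data known.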

Additional observations from a re-analysis of the deposited data

How the results depend on the processing

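For RNA, the count of all genes called was 897, 1405 with DESeq2, 543 among those no lower than the median level (where fewer were tested), 1425 with the length trend removed (added after seeing the data) and 478 to 1107 with 1 library left out; library totals in place of TMM gave 367 higher and 492 lower. The count of members called was 0, but 1 with DESeq2, 2 with the length trend removed and 0 to 1 with 1 library left out, where the 1 was Mrpl48 without HFD D. The members' median log2 change of 0.07 became -0.089 without HFD A and lay between -0.089 and 0.152 with 1 library left out; with library totals it was 0.02, with 48 of 77 members above 0. For H3K9ac, all regions called numbered 1372, 798 with DESeq2, 887 among those no lower than the median level, and 563 (without HFD B) to 1862 (without HFD D) with 1 library left out. Member promoter calls were 0 in every setting run, including distances of 500 and 2000 bases, 1 region per gene and regions over a RefSeq start site, and the median stayed between 0.00864 and 0.0471. Why these counts move was not tested, apart from the smaller numbers tested or fitted. The smallest of the member promoter regions held 6 counts in a library, which limits what could be seen there.

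The library letter as a replicate block gave 826 RNA calls and 1277 H3K9ac calls, with 0 members called and member medians of 0.058 and 0.046. Equal letters deviated together in RNA with correlations of 0.34 (A), 0.07 (B), 0.26 (C) and -0.26 (D), and not every RNA library correlated best with its own letter. In H3K9ac the 2 shared letters had 0.097 (A) and 0.093 (D), the highest values of those libraries but both under 0.1. The letters were therefore not used as pairs, and what they mark is not stated.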

Other observations

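A single liver stood far from the other 3 of its diet in 4 of 154 sets of member RNA values (2.6%). The measure was the gap to the nearest liver over the whole range. For 1 set taken alone chance gives about 1 in 20. The sets share the same livers and the members move together, so that rate is no yardstick for their share. HFD A was high for Mrpl55 (17.2 CPM, gap 0.938 of the range), Mrps30 (29.99 CPM, 0.849) and Mrpl57 (20.02 CPM, 0.843), and CD D was the liver apart for Mrpl46 (15.4 CPM, 0.83). None of the members given with full values was among them.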
